A study of Mus musculus with 6 samples.

Results

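YY1 is a zinc finger transcription factor, and its chromatin immunoprecipitation in mouse muscle satellite cells gave 632 peaks that lay inside a gene locus and away from both of its ends. A peak belonged to them when its interval overlapped a gene locus of the deposited expression tables and no locus end of any gene lay within 2 kb of it. They made up 31.2% of the 2028 peaks outside chromosome Y (exact Clopper-Pearson 95% interval 29.2 to 33.2%, counting error only). The deposited list holds 2031 peaks with numbers up to 20534 in their names, and the step that shortened it is not stated, so shares and densities below apply to the listed peaks. A further 623 peaks lay within 2 kb of a locus end and 773 lay outside loci. The rule used positions only, so the strength of the peaks and the expression of the genes around them were not part of the choice.

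The peaks came from 1 immunoprecipitation library of activated satellite cells (ASC), adult satellite cells kept in culture for 36 h, made with a rabbit polyclonal YY1 antibody and set beside 1 input library. Both carry C57 in their titles. RNA came from 4 other libraries, 1 wild-type (WT) and 1 labelled Yy1 iKO from freshly isolated satellite cells (FISC), and 1 of each genotype from ASC. The sources used here do not give the alleles, the driver of the deletion, the age of the animals or any pooling. With 1 library in each group no difference below has a replicate check, and every comparison is a description without a p-value.

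YY1 binds a short sequence around a core of CCAT, most often close to the start sites of active genes, where it can activate or repress, and it also contacts Polycomb and INO80 chromatin complexes. Satellite cells are the resident stem cells of skeletal muscle, quiescent in the resting tissue and dividing after injury or in culture. Peaks away from gene starts are known for many transcription factors, and some of them lie at enhancers within introns. The files hold no genome of the peaks' build (mm9), so the bases under the peaks were not analysed here.

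What the files show of sequence is at the genes' start sites. Of the 15 highest peaks, 12 lay in loci that the tables give to several genes at once, where the start of a gene can lie inside the locus. Promoters from loci of that kind are shown. Promoters come from RefSeq on build GRCm38.p6 and run from 250 bases before to 50 bases after a start. Capitals mark GATGGCG, the YY1 core with its extension, or its reverse complement CGCCATC, and each of the 4 genes shares a locus with a peak that passed a q of 0.05. Of 73 promoters of genes at such peaks 9 hold this motif, and the 4 shown were taken from these. Its presence in them thus follows from the choice. The peaks of Raver1 and Ptbp1 rank 17 and 28 by score, outside the 15 highest. Of several RefSeq starts of Slx4ip, 1 is shown.

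Slx4ip (chr2:136891918-136892217, plus strand): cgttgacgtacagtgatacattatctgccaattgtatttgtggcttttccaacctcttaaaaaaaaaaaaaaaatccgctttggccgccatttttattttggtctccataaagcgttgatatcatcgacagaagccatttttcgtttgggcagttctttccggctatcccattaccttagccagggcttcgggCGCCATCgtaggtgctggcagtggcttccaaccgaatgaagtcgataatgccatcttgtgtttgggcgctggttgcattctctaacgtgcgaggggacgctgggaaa

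Znhit1 (chr5:136986855-136987154, minus strand): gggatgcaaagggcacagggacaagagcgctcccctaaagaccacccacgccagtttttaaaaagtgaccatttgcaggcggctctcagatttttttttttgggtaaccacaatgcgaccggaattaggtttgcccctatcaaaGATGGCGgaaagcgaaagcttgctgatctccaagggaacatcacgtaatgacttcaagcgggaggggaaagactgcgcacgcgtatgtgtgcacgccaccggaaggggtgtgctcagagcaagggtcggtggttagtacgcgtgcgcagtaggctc

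Raver1 (chr9:21091950-21092249, minus strand): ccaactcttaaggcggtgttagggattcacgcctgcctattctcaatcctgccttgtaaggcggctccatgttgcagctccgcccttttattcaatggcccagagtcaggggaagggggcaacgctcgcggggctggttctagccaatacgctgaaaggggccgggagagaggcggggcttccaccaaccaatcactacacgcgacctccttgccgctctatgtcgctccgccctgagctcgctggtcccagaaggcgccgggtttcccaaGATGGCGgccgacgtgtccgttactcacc

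Ptbp1 (chr10:79854182-79854481, plus strand): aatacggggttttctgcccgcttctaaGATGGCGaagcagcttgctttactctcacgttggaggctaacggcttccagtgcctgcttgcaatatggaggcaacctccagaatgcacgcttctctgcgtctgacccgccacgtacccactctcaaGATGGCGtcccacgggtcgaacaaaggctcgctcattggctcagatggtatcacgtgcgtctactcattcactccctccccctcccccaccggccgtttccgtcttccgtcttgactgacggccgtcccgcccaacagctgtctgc

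The motif began 57 bases before the listed start of Slx4ip on the reverse strand, 106 bases before that of Znhit1, and 22 bases after that of Raver1. The promoter of Ptbp1 held it at 2 places, 223 and 96 bases before the start. The peaks are placed on mm9 and these promoters on GRCm38.p6, so whether a peak covers one of them was not tested.

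Across all genes, promoters of those that host a strong peak held this motif more often than promoters in general, on small numbers. Of the 64 genes whose loci held a peak with q of at most 0.05 deep inside, 45 had a promoter in the table. GATGGCG, searched on both strands, stood in 9 of their 73 promoters (12.3%), in 27 of 728 promoters (3.71%) of the genes that hosted only weaker peaks, and in 1147 of all 32851 promoters (3.49%). Some of these promoters overlap and share 1 motif. With overlapping windows merged the counts were 6 of 60 (10%), 24 of 681 (3.52%) and 1014 of 29061 (3.49%). For comparison, 85 of 282 promoters (30.1%) of genes with a peak of that strength near a locus end held it. The shorter core AANATGG, with reverse complement CCATNTT, stood in 20.5%, 12.2%, 16.1% and 57.8% of the same 4 sets. It can overlap GATGGCG. Other motifs were searched in the same sets, given in the same order. The AP-1 motif TGANTCA stood in 9.59%, 4.12%, 7.81% and 3.55%, and the ETS motif CCGGAA in 17.8%, 15.7%, 14.9% and 34.8%. The E-box CANNTG stood in 65.8%, 68.8%, 72.3% and 59.9%, and CGCGCG in 11.0%, 19.4%, 11.3% and 14.2%. A higher share at hosts of strong peaks than at hosts of weaker ones was thus not limited to the YY1 motifs. These letters describe promoters and not the peaks, and their absence from a window says nothing of YY1.

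Most peaks deep inside loci were weak by the authors' own values. Their score, 10 times the −log10 p truncated to a whole number, had a median of 48, with quartiles at 46 and 49, where the lowest score in the list was 40. The median of the authors' fold enrichment was 4.12 and their median width 108 bases. Peaks near locus ends had a median score of 58 with an upper quartile of 96.5, and peaks outside loci had a median of 48 with an upper quartile of 49. The peaks inside loci thus lay beside those outside loci in score, and 21 of them reached a score of 75 where 246 peaks near locus ends did.

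Of the 632 peaks, 30 had an authors' q of at most 0.05, which is 4.75% (95% interval 3.23 to 6.71%). The share was 17.1% over all 2028 peaks, 46.5% (42.6 to 50.6%) near locus ends and 3.49% (2.31 to 5.04%) outside loci. The other 602 had scores of 59 or less and a −log10 q of at most 1.14. Many of those were tied. The same −log10 p of 4.84 and fold of 4.12 recurred in 257 members, a −log10 p of 4.08 in 122, 5.87 in 80 and 4.99 in 52. These 4 values covered 511 members (80.9%). The first of them held 49.4% of the peaks outside loci but 10.8% of those near locus ends. In width, 132 members had the smallest size of 93 bases and 14 exceeded 200 bases.

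**Figure D1:**
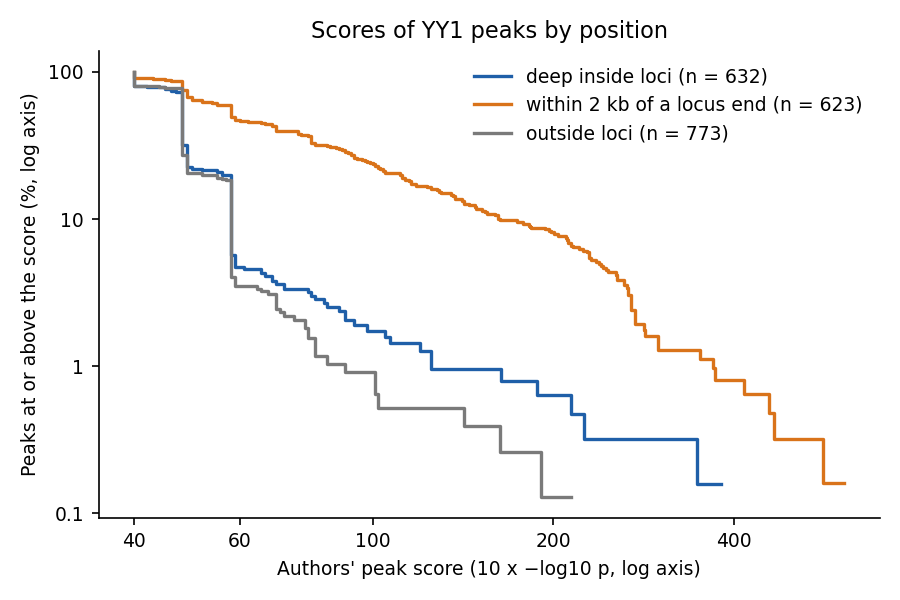
Share of peaks (log axis, percent) at or above each authors' score (log axis, 10 times −log10 p) for the 632 peaks deep inside loci, the 623 within 2 kb of a locus end and the 773 outside loci. The curve of the deep peaks follows that of the peaks outside loci up to a score of 59 and stays under that of the peaks near locus ends.

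Strong peaks deep inside loci were mostly found where several genes share a locus. Of the 199 members whose locus the tables give to more than 1 gene symbol, 24 (12.1%, 95% interval 7.88 to 17.4%) passed a q of 0.05. Of the 433 at a single symbol, 6 did (1.39%, 0.510 to 2.99%). In the tables the genes of such a locus carry the same coordinates, so the start of one gene can stand far from the ends of the listed locus. For those 24 peaks a position deep inside is known only for the listed locus, and the distance to the ends of each gene in it was not tested.

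RefSeq starts give a further view of those loci. Of the 24 peaks, 16 lay in loci with at least 2 symbols in the promoter table, and in 9 of the 16 (56.2%, 95% interval 29.9 to 80.2%) a pair of genes started on opposite strands within 1000 bases of each other. Among members with a higher q at several symbols, 14 of 77 lay in loci with such a pair (18.2%, 10.3 to 28.6%). Both counts are of peaks, so a locus with several members enters once for each. Counted by locus, over all loci with several symbols, 205 of 1047 held such a pair (19.6%, 17.2 to 22.1%). The 9 were Mkks with Slx4ip, Atraid with Slc5a6, Bbip1 with Shoc2, Plod3 with Znhit1, Deaf1 with Tmem80, Mrpl48 with Rab6a, Sass6 with Trmt13, Bad with Gpr137, and Cryz with Tyw3. This search was chosen after the strong peaks had been seen.

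The strongest of the 632 peaks lay in the locus of Zc3h7a alone, a CCCH zinc finger gene, at chr16:11144101-11144385, 7.42 kb from a locus end. Its score was 381, its fold 10.7 and its −log10 q 32.8. Zc3h7a RNA stood at 18.0 FPKM (fragments scaled to transcript length and library depth) in ASC WT and 24.8 in ASC iKO, and at 40.2 in FISC WT and 31.2 in FISC iKO. The order of the genotypes was opposite in the states and both differences were within 2-fold.

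The peak with the next highest score, at chr1:173152491-173152842, had a score of 347 and the highest fold of all members, 16.6. Its locus of 12.4 kb is given to Apoa2, an apolipoprotein, Nr1i3, a nuclear receptor, and Tomm40l, a relative of the mitochondrial import channel. Tomm40l stood at 13.4 FPKM in ASC WT and 30.8 in ASC iKO, a log2 ratio of 1.14 on FPKM + 1, and at 5.55 and 5.11 in FISC. Nr1i3 was listed at 0 in all 4 libraries and Apoa2 did not reach 1 FPKM in any.

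The peak at chr2:136717719-136717939 had a score of 225 and lay in the locus of Mkks, a chaperonin-like gene of ciliary function, and Slx4ip, whose product binds a DNA repair scaffold. Mkks stood at 10.7 FPKM in ASC WT and 20.2 in ASC iKO, whereas Slx4ip stood at 1.85 and 0.375. Genes of one locus thus differed in direction between the ASC libraries. The same was seen at chr16:57391520-57391767 (score 164), 89.4 kb from a locus end, where Cmss1 stood at 35.1 and 72.4 FPKM and Filip1l at 11.4 and 2.45.

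The other peaks with scores above 100 lay in loci of genes with varied roles. At chr15:54943878-54944056 (score 214) the genes are Deptor, an inhibitor of mTOR, and the predicted gene Gm9920. Deptor stood at 10.2 FPKM in ASC WT and 4.77 in ASC iKO, and Gm9920 did not reach 1 FPKM. At chr5:31350608-31350775 (score 188) the genes are Slc5a6, a vitamin transporter, at 6.22 and 4.21 FPKM, and Atraid at 21.2 and 20.8. The peak at chr19:54018957-54019155 (score 125) lay in a locus of Bbip1, a subunit of the ciliary BBSome, Pdcd4, an inhibitor of translation, and Shoc2, a scaffold of Ras signalling. Of these 3, Bbip1 passed 2-fold in ASC (11.6 and 29.5 FPKM).

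At chr5:137462781-137462921 (score 125) the genes are Plod3, a collagen lysyl hydroxylase, and Znhit1, a subunit of the SRCAP chromatin remodeler. The locus is also given to Mir702, a microRNA gene. Znhit1 stood at 33.98 FPKM in ASC WT and 107 in ASC iKO, and Plod3 at 34.9 and 26.9. Pfkfb2, which makes a regulator of glycolysis, and Yod1, a deubiquitinase, share the locus of the peak at chr1:132613999-132614153 (score 107). They stood at 3.18 and 2.17 FPKM and at 3.56 and 0.408 FPKM. Armc5 shares the locus of the peak at chr7:135381565-135381716 (score 105) with the clone-named 9130023H24Rik. Armc5 stood at 10.5 and 7.09 FPKM and 9130023H24Rik at 2.40 and 4.11.

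Further peaks among the 15 highest lay in Camk1d, a calmodulin-regulated kinase (98), the locus of Ppp2r3c, a phosphatase subunit (90), and Adk, adenosine kinase (90). Adk stood at 59.6 FPKM in ASC WT and 38.9 in ASC iKO. Of the 30 peaks that passed q, 3 had a fold under 4, namely those at Filip1l (3.42), Camk1d (3.14) and the locus of Cryz and Tyw3 (3.76). Score and fold therefore ranked those peaks differently.

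**Figure D2:**
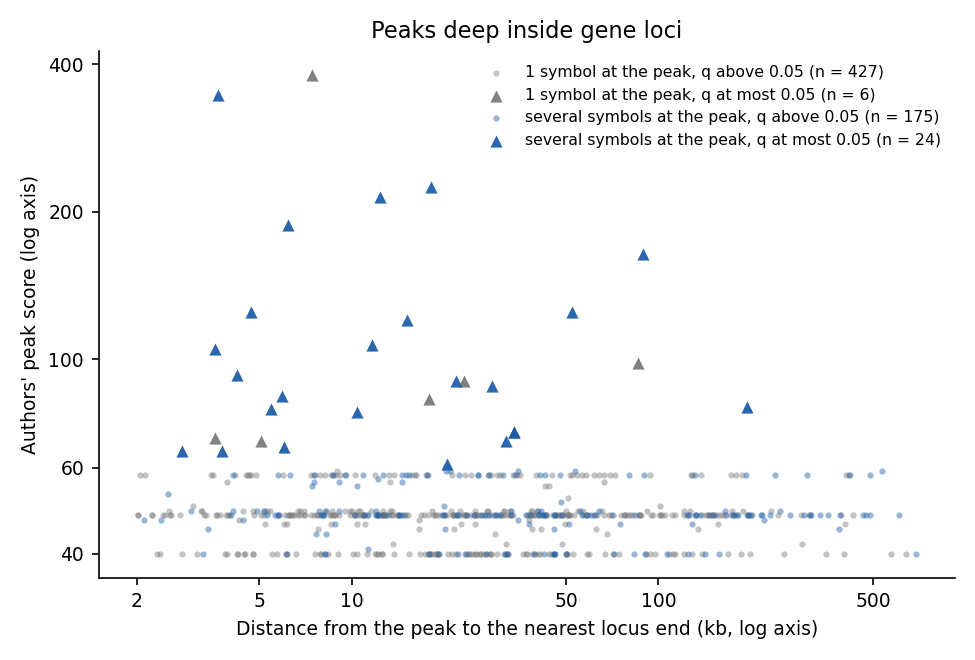
Authors' score (log axis) against distance to the nearest locus end (kb, log axis) for the 632 peaks deep inside loci, by the number of symbols at the peak and by q. The 30 peaks with q of at most 0.05 (triangles) stand above rows of tied scores, and 24 of them lie where several symbols share the locus.

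A group of related genes stood out after the values had been seen. The 4 nuclear factor I genes, Nfia, Nfib, Nfic and Nfix, encode transcription factors that bind DNA as dimers, and Nfix is known for a switch between muscle gene programs in development. All 4 hosted peaks deep inside their loci, 6 in total, and 3 of those passed q, where 3.42% of all symbols were hosts and 4.75% of members passed q. Those 3 had a score of 120 at Nfic (chr10:80874620-80874764, 15.2 kb from a locus end), 88 at Nfix (chr8:87253965-87254122, 28.6 kb) and 80 at Nfia (chr4:97590522-97590660, 195 kb). The loci of these 3 are shared with Mir1191b, Lyl1 and the clone-named E130114P18Rik. The other 3 had scores of 51 at Nfix, 50 at Nfib and 49 at Nfia. Long loci held members more often: 19.7% of loci of 200 kb and over did, the class of Nfia and Nfib. The share was 5.08% at 50 to 100 kb, the class of Nfix, and 2.71% at 25 to 50 kb, that of Nfic. All 3 peaks that passed q lay at several symbols, where 12.1% of members passed.

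RNA of the 4 genes did not move as a group. Nfic stood at 40.5 FPKM in ASC WT and 12.3 in ASC iKO, a log2 ratio of −1.64, and at 28.4 and 24.97 in FISC. Nfix stood at 31.9 and 14.3 FPKM in ASC (−1.10) and at 38.3 and 41.5 in FISC. Nfib stood at 17.0 and 21.0 FPKM in ASC, and Nfia at 2.80 and 3.31, both higher in iKO within 2-fold. In FISC all 4 genes were within 2-fold between the genotypes.

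**Figure D3:**
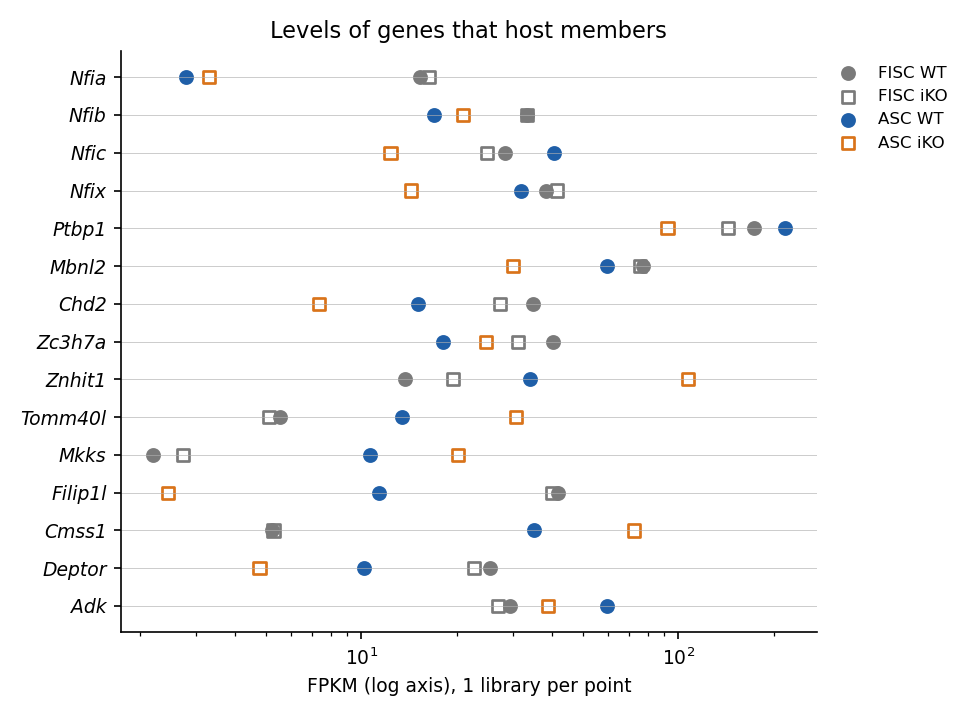
FPKM (log axis) of 15 genes that host peaks deep inside their loci, in the 4 RNA libraries, 1 library per point. Nfic, Nfix, Ptbp1 and Filip1l are lower in ASC iKO than in ASC WT, while Znhit1, Tomm40l and Cmss1 are higher.

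Within their loci the peaks lay at all depths. The distance to the nearest locus end had a median of 25.4 kb and ran from 2.01 to 690 kb. It was under 5 kb for 66 peaks, 5 to 10 kb for 94, 10 to 50 kb for 286, 50 to 100 kb for 78 and more for 108. As a share of the length of the smallest host locus, that distance had a median of 0.269, where 0 is an end and 0.5 the middle, with quartiles at 0.135 and 0.383.

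In kb, the peaks that passed q were nearer to the ends, but not as a share of locus length. That share had a median of 0.265 in them and 0.269 in the others, and their host loci were shorter, with medians of 58.8 and 126 kb. Of the peaks 2 to 5 kb from an end, 7 of 66 passed q (10.6%, 95% interval 4.37 to 20.6%), and of those 100 kb and more away 1 of 108 did (0.926%, 0.0234 to 5.05%). In between the shares were 6.38%, 4.55% and 3.85%. The intervals of neighbouring classes overlap. At the limit of 2 kb the 3 members just inside, at Adgrb1 (2009 bases), Ctcf (2017) and Lzts3 (2042), had scores of 48, 48 and 58. The 3 peaks just outside, at Zfp804b (1945 bases), Psma7 (1920) and Apol10a (1902), had scores of 48, 47 and 48.

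The deepest peaks lay in very long loci whose genes were near 0 FPKM. The farthest, 690 kb from an end, lay in Fhit, a large fragile-site gene, with a score of 40. The next were in Magi2, a synaptic scaffold (643 kb, score 40), Cntn5, a neuronal adhesion gene (607 kb, 48), Nkain2 (572 kb, 40) and Gpc5, a glypican (537 kb, 59). Cntn5 and Gpc5 were listed at 0 in all 4 libraries, and Fhit was the only one of the 5 to reach 1 FPKM in any library (1.32 in FISC WT). The lowest score of 40 was shared by 126 members. Dhx29, Basp1, Hira and Dpagt1 held the lowest −log10 p of 4.02, and Egfl6 was among the 122 tied at 4.08.

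Few loci held more than 1 such peak. The 632 peaks lay in 585 loci, of which 541 held 1, 41 held 2 and 3 held 3. Of the 3, the locus of Chd2, a chromatin remodeler, held scores of 71, 59 and 50, and the latter 2 peaks were 166 bases apart. Efcab6 held 3 tied scores of 48, and Lrp1b, a very long receptor gene, scores of 48, 48 and 58. Chd2 stood at 15.1 FPKM in ASC WT and 7.34 in ASC iKO, and at 34.7 and 27.3 in FISC, whereas Lrp1b was listed at 0 in all libraries and Efcab6 did not reach 1 FPKM. In 13 of the 632 cases (2.06%) another peak lay within 2 kb of an end and overlapped the same locus. For 7 of them, at Bad with Gpr137, Hdlbp, Zfp563, Gigyf2 with Kcnj13, Rptor with Chmp6, Taf3 and a clone-named gene, that second peak passed q.

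The density of peaks in locus interiors was lower in the longest loci than in those of 25 to 50 kb. The interiors, taken as all bases over 2 kb from any locus end and assigned to the smallest locus, added up to 918 Mb and held 0.689 peaks per Mb (exact Poisson 95% interval 0.636 to 0.745, counting error only). The density was 0.688 per Mb in loci under 25 kb, 0.884 (0.716 to 1.08) at 25 to 50 kb, 0.789 at 50 to 100 kb, 0.760 at 100 to 200 kb and 0.561 (0.489 to 0.640) from 200 kb upwards. Peaks that passed q stood at 0.110 per Mb (0.0475 to 0.217) in the shortest class and at 0.0127 (0.00414 to 0.0297) in the longest.

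Density also went with expression, most of all for the peaks that passed q. Loci were grouped by the highest FPKM of their genes in ASC WT, which 628 peaks allowed. Those under 0.1 FPKM held 0.511 peaks per Mb (0.435 to 0.597) and those of 10 FPKM and over held 0.913 (0.795 to 1.04). For peaks that passed q the values were 1 peak in 313 Mb, or 0.00319 per Mb (8.1e-05 to 0.0178), and 22 peaks in 238 Mb, or 0.0925 (0.0580 to 0.140). Between 0.1 and 1 FPKM there was none in 126 Mb, which allows up to 0.0239 per Mb by a limit of 3 counts and up to 0.0294 by the exact interval. Among loci given to several symbols the density of peaks that passed q was 0.0974 per Mb (0.0624 to 0.145), and among those with 1 symbol 0.00894 (0.00328 to 0.0195). How far the number of symbols and the expression level overlap here was not tested.

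**Figure D4:**
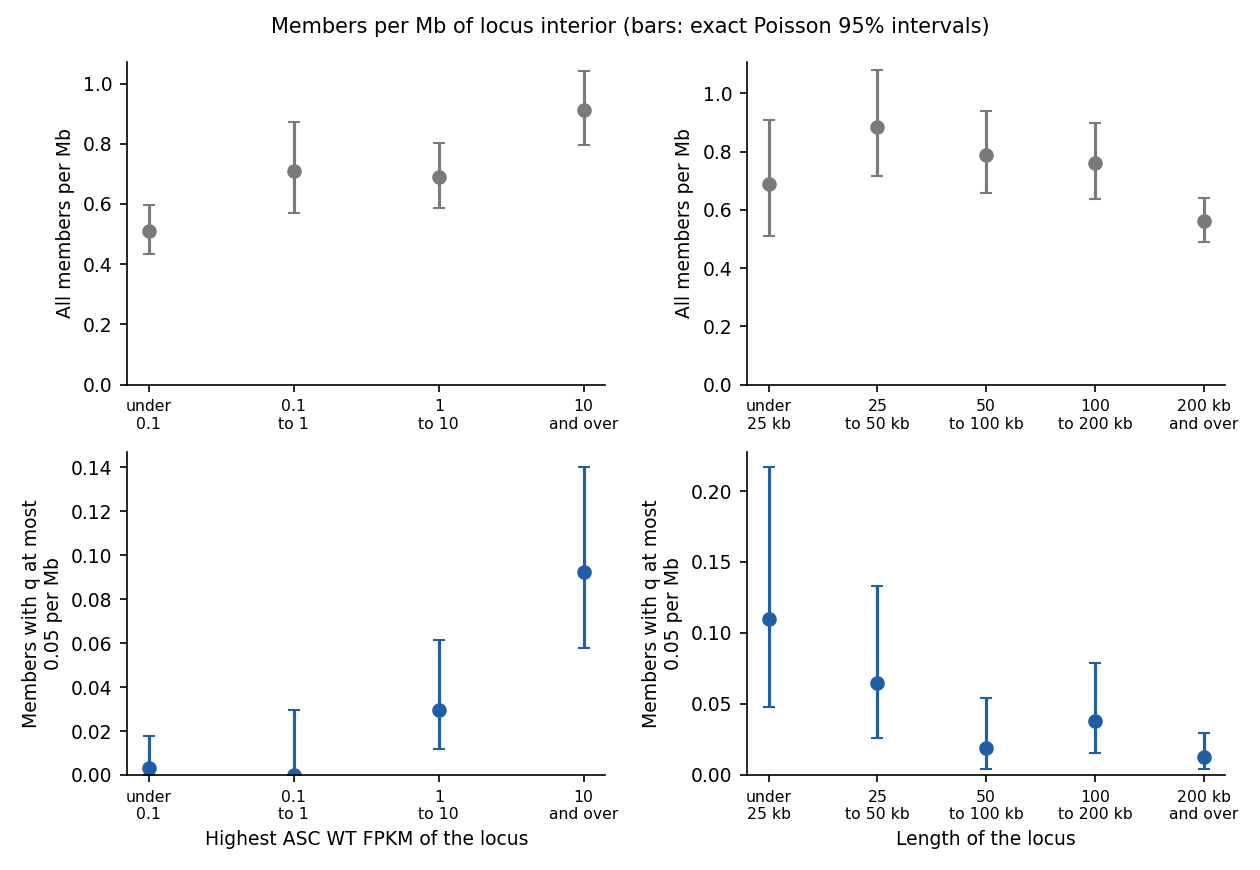
Peaks deep inside loci per Mb of locus interior, all (top) and those with q of at most 0.05 (bottom), by the highest ASC WT FPKM of the locus (left) and by its length (right), with exact Poisson 95% intervals. Peaks that passed q are densest in loci of 10 FPKM and over (0.0925 per Mb) and in loci under 25 kb (0.110 per Mb).

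The loci hosted 837 gene symbols, of 24450 in the tables (3.42%). Their median level in ASC WT was 1.02 FPKM, beside 0.309 for all genes, and 417 of the 830 with a value (50.2%) reached 1 FPKM, beside 44.6% of all. Hosts of a peak that passed q had a median of 7.43 FPKM, and 51 of 63 (81.0%) reached 1 FPKM. Hosts of other peaks had a median of 0.656 FPKM. The medians in FISC WT were 1.08 FPKM over hosts, 5.55 over hosts of a peak that passed q and 0.437 over all genes. Host symbols at a locus of their own had a median of 2.87 FPKM in ASC WT.

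The Yy1 transcript checks the genotype labels: it stood at 55.2 FPKM in ASC WT and 2.03 in ASC iKO, and at 51.0 in FISC WT and 20.1 in FISC iKO. All 10 satellite cell markers, among them Pax7 and Myod1, reached 1 FPKM in ASC WT. Summed levels of the markers of other cells there were 10.7 FPKM for 6 fibroblast genes, 5.15 for 5 pericyte genes, 2.93 for 5 endothelial genes, 1.43 for 6 immune genes and 0 for 4 erythroid genes. In ASC iKO the sums were 7.96, 2.21, 2.88, 5.33 and 0.0561, where Cd68 of the immune list was at 5.16 FPKM, beside 1.36 in ASC WT, and Pax7 at 6.19, beside 28.3. In FISC they were 176, 149, 17.8, 4.12 and 185 in WT and 201, 147, 14.7, 4.34 and 286 in iKO. Most of the pericyte sum was Notch3, which is also in the list of myogenic and satellite cell genes below. Notch3 alone stood at 131 FPKM in FISC WT and 130 in FISC iKO, and at 3.53 in ASC WT and 1.44 in ASC iKO. The part of these markers in the ratios below was not tested. Ptprc, which marks leukocytes, was listed at 0 in both ASC libraries. In such bulk RNA fewer cells of a type and less RNA per cell cannot be told apart.

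In ASC, host genes were lower in the iKO library more often than genes in general. So were genes of 50 kb and over that were not hosts. Of 837 hosts, 425 reached 1 FPKM in 1 of the libraries. Of these, 66 (15.5%) were at least 2-fold lower in iKO on FPKM + 1, where 8.26% of all 11215 genes were, and 24 (5.65%) were at least 2-fold higher, where 8.74% were. Their median log2 ratio was −0.33 and that of all genes −0.00246. With upper-quartile scaling, 19 hosts were higher and 81 lower, beside 653 and 1199 of all genes, whose median then stood at −0.13. The hosts' loci were longer, with a median of 91.8 kb beside 24.5 kb, and the ratio in ASC moved with locus length. The ASC iKO library stood apart in its FPKM sum, 1245942 beside 505469 in ASC WT, and the sum was 749701 without Mir762, a microRNA gene at 496241 FPKM there and 0 in ASC WT. The part of this sum in the ratios was not tested beyond the upper-quartile scaling.

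Hosts and other genes had close medians from 50 to 200 kb and differed more in the other classes, most of all under 25 kb. From 50 to 100 kb the median ratio was −0.37 over 101 hosts and −0.34 over 1637 other genes. From 100 to 200 kb it was −0.44 over 104 hosts and −0.45 over 882 others, and from 200 kb upwards −0.57 over 95 and −0.49 over 399. The shares lower by 2-fold in those 3 classes were 13.9% and 14.3%, 15.4% and 17.1%, and 28.4% and 20.3%, hosts given before others. Under 25 kb the medians were −0.03 over 46 hosts and 0.29 over 5647 others, and from 25 to 50 kb −0.03 and −0.11. Hosts thus stood below others under 25 kb and above them from 25 to 50 kb. The shares lower by 2-fold in these classes were 6.52% and 3.70%, and 7.59% and 8.31%. Those higher by 2-fold were 13.0% and 14.1% under 25 kb, and 10.1% and 4.27% at 25 to 50 kb. In the 3 longer classes they were 2.97% and 2.32%, 4.81% and 2.15%, and 2.11% and 2.01%.

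**Figure D5:**
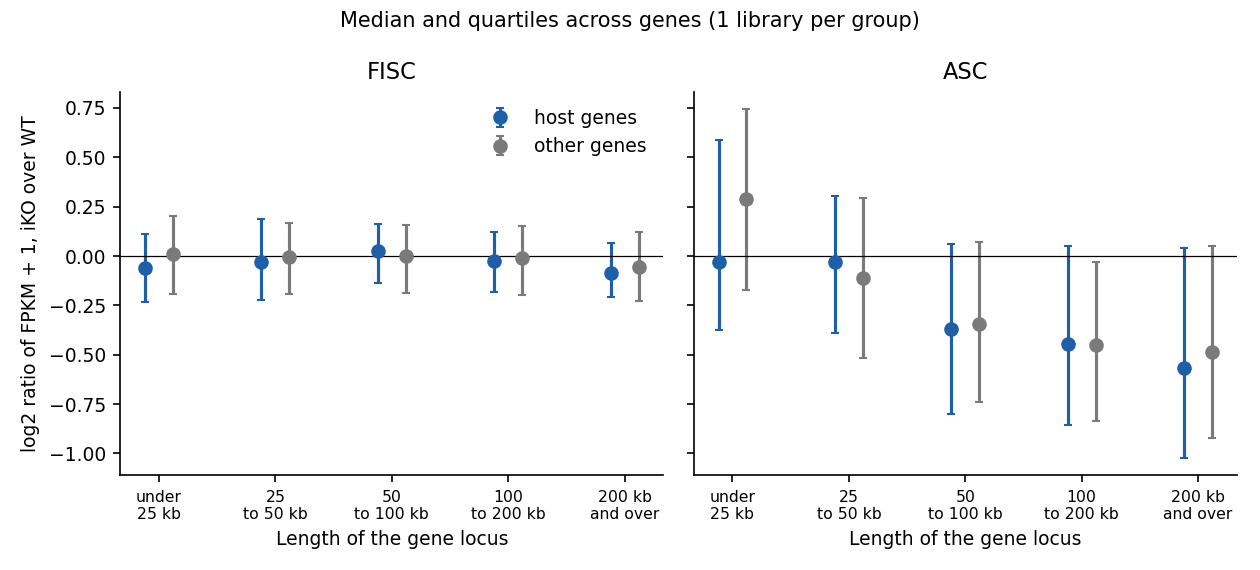
Median and quartiles of the log2 ratio of FPKM + 1, iKO over WT, across host genes and all other genes by length of the gene locus, in FISC and ASC, with 1 library per group. In ASC both are lower in longer loci, down to −0.57 and −0.49 from 200 kb upwards, while in FISC all medians lie between −0.08 and 0.03.

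The hosts of a peak that passed q went both ways in ASC. Of 53, 9 were higher (17.0%) and 10 lower (18.9%) by the 2-fold rule, with a median of −0.02. Of all genes, 8.74% were higher and 8.26% lower. Of hosts at several symbols, 18 of 185 were higher (9.73%) and 29 lower (15.7%). Of hosts at 1 symbol, 6 of 240 were higher (2.5%) and 37 lower (15.4%). In FISC, 1 of 433 hosts was 2-fold higher and 2 were lower, beside 0.677% and 0.721% of all 11229 genes. None of the 46 hosts of a peak that passed q was in either count. FPKM of genes that overlap depends on how reads were divided between them, and the strand setting is not given, so ratios at shared loci are uncertain.

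The hosts lowest in ASC iKO, with clone and predicted genes left out, were mostly long genes at weak peaks. Dock1, an activator of Rac, had 8.43 FPKM in ASC WT and 0.690 in ASC iKO, Exoc4, an exocyst subunit, at 27.2 and 4.19, and Tbl1x, a corepressor subunit, at 40.3 and 7.03. Ern1, a sensor of unfolded proteins, stood at 11.7 and 1.54 FPKM, Cdh13, a cadherin, at 24.3 and 4.63, and the RNA exonuclease Xrn1 at 5.06 and 0.505. Fads2, a fatty acid desaturase, stood at 11.3 and 2.44 FPKM, Stau2, an RNA-binding protein, at 5.04 and 0.844, and Dst, a cytoskeletal linker, at 28.1 and 7.95. Of these 10 only Filip1l, described above, hosted a peak that passed q, and the scores at the other 9 ran from 40 to 58. Among all 425 hosts that reached 1 FPKM in ASC, 53 hosted such a peak. Of the clone-named genes left out, A730008H23Rik (12.4 and 0 FPKM, score 45) would rank lowest, below Dock1. Also among the 10 would be D130020L05Rik (7.45 and 0.753 FPKM, score 79) and 4930402H24Rik (10.3 and 1.40 FPKM, score 58). Only the peak at D130020L05Rik passed q.

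Among the 10 highest, again without clone and predicted genes, 5 hosted a peak that passed q: Znhit1 and Bbip1 (above), Tmem80 (7.17 and 20.7 FPKM), Fdx1l, a mitochondrial ferredoxin (62.1 and 156), and Ptrhd1 (2.17 and 6.48). The other 5 were Cpne8, a copine (2.37 and 13.7), Fas, a death receptor (2.83 and 11.1), Pfdn4, a prefoldin subunit (53.4 and 170), Smco4 (15.8 and 41.5) and Cox16, an assembly factor of cytochrome oxidase (22.1 and 53.1). All but Cpne8, Fas and Smco4 lie in loci given to several symbols. Of the genes left out, Gm5512 (0.0420 and 14.9 FPKM) and 2700060E02Rik (106 and 267), neither at a peak that passed q, would rank among the 10. They would displace Ptrhd1 and Cox16. Of all 425 hosts that reached 1 FPKM in ASC, 53 hosted a peak that passed q. Among these 53, 9 were higher (17.0%) and 10 lower (18.9%) by the 2-fold rule, beside 8.74% and 8.26% of all genes.

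In FISC the lowest hosts were Tm4sf1 (14.97 FPKM in WT and 6.12 in iKO), the only named one past 2-fold on that side, Dab2, an endocytic adaptor (6.31 and 2.85), Kcnma1, a potassium channel (7.52 and 3.78), Gpr137 (5.20 and 2.49) and Stx6, a syntaxin (26.6 and 15.03). The highest were Apod, a lipocalin (15.4 and 60.3 FPKM), Tmem80 (2.91 and 5.86), Dbp, a circadian factor (5.69 and 9.52), Gmds (6.33 and 10.3) and Sesn1, a sestrin (14.7 and 22.4). Apod alone of these 5 passed 2-fold. Tm4sf1 went the other way in ASC, at 50.6 and 85.1 FPKM.

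Hosts were few in each list of functions examined, and the lists were drawn up with earlier results of these data known. RNA processing genes held 4 of 39 (10.3%), beside 3.42% of all symbols. Ptbp1, a repressor of splicing, hosted a peak that passed q (chr10:79316931-79317124, score 65) and stood at 217 FPKM in ASC WT and 92.4 in ASC iKO. Mbnl2, a splicing regulator, stood at 59.7 and 30.2 FPKM, Celf2 at 29.2 and 22.1 and Hnrnpk at 407 and 400, with scores of 56, 48 and 58. Over the whole list 3 of 39 genes were 2-fold lower and none higher in ASC, with a median of −0.06, where 8.26% of all genes were lower.

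Of 59 Polycomb and chromatin genes, 3 were hosts (5.08%). Besides Chd2 these were Kdm2b, a demethylase that recruits Polycomb (16.9 FPKM in ASC WT and 11.1 in ASC iKO, score 49), and Jarid2, a Polycomb cofactor (2.87 and 2.50, score 40). In ASC, 10 of 58 measured genes of that list were 2-fold lower and 1 higher, where 8.26% and 8.74% of all genes were. The list had a median locus of 67.6 kb, and among genes of 50 to 100 kb that were not hosts 14.3% were lower. Of 28 genes of the YY1 family and its partners, Ino80 (16.5 and 14.9 FPKM, score 40) and Ctcf (44.7 and 36.7, score 48) were hosts. In that list 2 of 25 measured genes, Yy1 included, were 2-fold lower in ASC and 1 higher, near those shares.

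Of 39 myogenic and satellite cell genes, 3 were hosts, all at peaks with scores of 40 or 48. Rbpj, the nuclear effector of Notch, stood at 79.9 FPKM in ASC WT and 53.2 in ASC iKO, the receptor Notch3 at 3.53 and 1.44, and the transcription factor Foxo1 at 6.65 and 7.20. In FISC, Notch3 stood at 131 and 130 FPKM. Adhesion and matrix genes held 2 of 50, Dst and the focal adhesion kinase Ptk2 (31.9 and 30.6 FPKM), cell cycle genes 1 of 49, Ccnb2 (9.74 and 9.44), and signalling genes 1 of 50, Rptor of the mTOR complex (19.3 and 13.2). Glycolysis held 1 of 30, Pfkfb2, and mitochondrial respiration none of 50, a list with a median locus of 15.4 kb beside 19.3 kb for all genes. Beside 8.26% of all genes, those lower by 2-fold in ASC were 7 of 36 measured myogenic, 22 of 46 adhesion and 17 of 49 cell cycle genes. Dst was the only one of the named hosts among them. The median loci of these lists were 27.2, 83.0 and 18.9 kb. Among genes that were not hosts, 3.70% were lower under 25 kb, 8.31% at 25 to 50 kb and 14.3% at 50 to 100 kb. Of 50 genes of mitochondrial respiration 11 were higher, beside 8.74% of all genes, and 2 lower. Under 25 kb 14.1% of genes that were not hosts were higher.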

How the data were processed

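Peaks came from 1 immunoprecipitation library with 1 input, and expression values from 4 RNA libraries. Per the file headers the expression values are FPKM, scaled by the authors. Tools in the submitters' processing notes are MACS2 2.1.0, TopHat2 and Cufflinks 2.2.1, with build mm9. The sources used here do not say which step each served, nor the annotation, strand or scaling. In the values, each deposited score equals 10 times the −log10 p without its decimals. Fold enrichment is the authors' own, and the authors' −log10 p and −log10 q were used as deposited. Depth is unknown for both assays, and intervals cover counting error only.

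Loci of both tables were used, 3 peaks on chromosome Y were left out, and genes that reached 1 FPKM in either library of a state got a log2 ratio of FPKM + 1 (iKO against WT). FPKM + 1 understates ratios of low genes. Scripts (python 3.11.15, pandas, scipy) were tested on simulated data. The members and lists were chosen with earlier results of these data known. Named peaks were the 15 highest and 5 lowest scores, 3 on each side of the limit, loci with 3 members and the farthest. Named genes were their hosts, hosts in the lists, and the 10 highest and 10 lowest ASC ratios and 5 and 5 in FISC among hosts of at least 5 FPKM. Clone, predicted and small RNA genes were left out of these choices, and some are named beside them. Of the 15 highest peaks, 1 is not reported here. The other peaks past q, the next 4 farthest, the loci with a second peak near an end, the start pairs, the promoter search, the nuclear factor I genes and the other genes plotted were chosen after their values were seen. The merging of overlapping promoters was also added then. The planned motif search under the peaks was not run, since no mm9 sequence was used here.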

Additional observations from a re-analysis of the deposited data

Results flagged for a closer look

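The 3 peaks on chromosome Y, which no comparison above uses, had the highest scores of the whole list, up to 1875, with a fold of 61.8. The highest score among peaks deep inside loci was 381. The region under them was not examined further.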

How the results depend on the processing

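The number of peaks deep inside loci stayed within 1.5 times of 632 under 7 alternatives, from 433 with loci of 1 symbol to 671 with a window of 1 kb. It was 36 at an authors' fold of at least 5, 30 at q of at most 0.05 (added after seeing the data) and 11 at a −log10 q of at least 5, which keep fewer peaks by construction. Host genes 2-fold higher in ASC iKO numbered 24 of 425 (5.65%), but 6 of 240 (2.5%) with loci of 1 symbol. They were 4 of 19 (21.1%) at a −log10 q of at least 5 and 9 of 53 (17.0%) at q of at most 0.05. Those lower numbered 66 of 425 (15.5%), but 37 of 240 (15.4%), 4 of 19 (21.1%) and 10 of 53 (18.9%) in the same order. Of all genes, 8.74% were higher and 8.26% lower. In FISC, the 1 higher host became 5 with a pseudocount of 0.1, 2 with upper-quartile scaling and 0 under both q limits. The 2 lower hosts became 5 with that pseudocount, 1 with a filter at 5 FPKM and 0 under both q limits. The median host level of 1.02 FPKM became 2.87 with loci of 1 symbol. The settings of 1 symbol and of q keep fewer hosts, so host counts cannot rise under them by construction. Other causes of these moves were not tested. Upper-quartile scaling shifted the median ratio of all ASC genes to −0.13 and the hosts' to −0.45, with 19 hosts higher and 81 lower, and 653 and 1199 of all genes in place of 980 and 926. The other 26 of 44 values kept within 1.5 times. The motif search under the peaks was not run. No paired analysis was possible because each group has 1 library. Depth is unknown, so peaks of the tied low scores cannot be ranked.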
